A study of Mus musculus with 6 samples.

Results

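The miR-101 family was examined in a table of read counts per mature miRNA, made from hearts of male wild-type (WT) mice. Its members were taken by name: miR-101a-3p, miR-101a-5p and miR-101b-3p, which are 3 of the 1966 rows of the table. Of the 6 mice, 3 had transverse aortic constriction (TAC), a surgical narrowing of the aorta that loads the left ventricle with pressure (animals 29, 78 and 81), and 3 had sham surgery (animals 47, 68 and 69). Cardiac tissue was collected 8 weeks after surgery, and each mouse gave 1 library. The sources used here do not give the mice's age or strain, the degree of constriction or a measure of heart function. In such bulk tissue, more cells of a type and more of a miRNA per cell cannot be told apart.

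A miRNA is cut from a hairpin precursor as a duplex. Usually 1 arm, the guide, is loaded into an Argonaute protein and pairs through its seed, bases 2 to 8 from its 5′ end, with target mRNAs, while the other arm is degraded. In miR-101 the 3p arm is the guide. It is known as a repressor of EZH2, the histone H3 lysine methyltransferase of Polycomb complexes, in human cancer cells, and of Fos, a transcription factor of the growth and matrix response, in rat cardiac fibroblasts. The mouse has miR-101a and miR-101b at separate loci. Target mRNAs were not measured here.

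The mature sequences below are shown because the seed defines the family and because the 3p arms differ so little; bases 2 to 8 of each row are in capitals. They come from RefSeq (build GRCm38.p6), whose positions equalled those of the table for all 7 miR-101, miR-144 and miR-582 rows looked up.
miR-101a-3p: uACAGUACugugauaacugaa
miR-101b-3p: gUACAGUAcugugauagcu
miR-101a-5p: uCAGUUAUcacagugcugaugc
miR-144-3p: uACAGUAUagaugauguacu
miR-582-5p: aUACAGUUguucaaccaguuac
The row of miR-101b-3p starts 1 base before that of miR-101a-3p on the aligned hairpins, so its bases 2 to 8 are the same stretch read 1 base earlier. By these annotated ends, the members have 3 different seeds, although both 3p rows hold the same run of 15 bases. Among the 1675 of 1966 rows matched by name to a RefSeq sequence, no other miRNA shares bases 2 to 8 with a member. The remaining rows were not searched. miR-144-3p, a red blood cell miRNA, shares bases 2 to 7 with miR-101a-3p, and miR-582-5p shares bases 2 to 7 with miR-101b-3p by its annotated start.

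In the hairpins, which are shown with both annotated arms in capitals, the guide lies on the 3′ side.
Mir101a: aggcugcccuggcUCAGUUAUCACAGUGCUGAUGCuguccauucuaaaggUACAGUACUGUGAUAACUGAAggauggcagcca
Mir101b: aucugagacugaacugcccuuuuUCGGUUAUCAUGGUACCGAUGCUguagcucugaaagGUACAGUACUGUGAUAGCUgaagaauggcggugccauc
On build mm10, miR-101a-3p lies on chromosome 4 (101346957 to 101346977, minus strand) and miR-101a-5p beside it (101346993 to 101347014). GENCODE release M21, which uses the same assembly, places both in an exon of E130102H24Rik, a long noncoding RNA gene on that strand. miR-101b-3p lies on chromosome 19 (29135338 to 29135356, plus strand), in an intron of Rcl1, a gene of ribosome biogenesis on that strand. Each member has 1 place in the table, and 0 rows of the opposite strand overlap it. Apart from the other arm of the same hairpin, no row of the table lies within 10000 bases of a member.

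Below, the 21 bases of miR-101a-3p are set against the same stretch of the hairpins of Mir101b and of a further locus, Mir101c on chromosome 9 (its hairpin from GENCODE), with every differing base in capitals.
Mir101a: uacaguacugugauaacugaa
Mir101b: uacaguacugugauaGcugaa
Mir101c: CacaguacugugauaacugaU
Counted from 1 at the 5′ end of miR-101a-3p, Mir101b differs by A16G alone, and Mir101c differs by U1C and A21U. A read of the guide that ends before base 16 has the same letters at Mir101a and Mir101b.

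Both 3p rows rose in TAC hearts. miR-101a-3p had 3698, 3188 and 3506 CPM (read counts scaled to the library by TMM factors) in TAC animals 29, 78 and 81, against 2134, 2110.3 and 1893 CPM in sham animals 47, 68 and 69. All TAC hearts lay above all sham hearts. The means were 3464 ± 258 CPM in TAC and 2046 ± 133 CPM in sham (SD, n = 3 each), and the log2 fold change was 0.76 ± 0.09 (SE), or 1.69-fold higher in TAC, with an edgeR adjusted p of 0.000901. miR-101b-3p had 3412, 2938 and 3235 CPM in the same TAC animals, against 2007, 2002 and 1777 CPM in the sham animals. Its means were 3195 ± 240 CPM in TAC and 1929 ± 131 CPM in sham (SD, n = 3 each), and its groups did not overlap either. Its log2 fold change was 0.73 ± 0.09 (SE), or 1.66-fold (edgeR adjusted p = 0.000901).

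**Figure D1:**
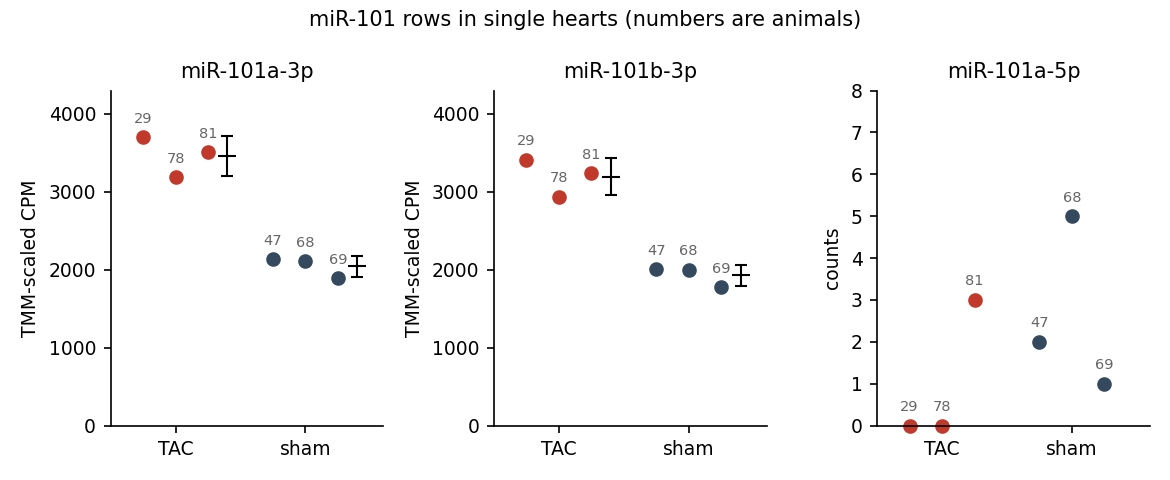
TMM-scaled CPM of miR-101a-3p and miR-101b-3p and raw counts of miR-101a-5p in each heart, TAC left of sham; each point is 1 heart with its animal number, and the horizontal marks and bars of the 3p panels are the mean and SD of 3 hearts. The 3p rows lie between 2938 and 3698 CPM in TAC and between 1777 and 2134 CPM in sham, while miR-101a-5p has at most 5 counts in any heart.

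These calls stand in a table where many miRNAs were called. Of the 354 miRNAs tested, 68 were higher and 40 lower in TAC (adjusted p under 0.05), which is 19.2% and 11.3%, or 30.5% in all. The groups did not overlap, with TAC higher, for 29.4% of tested miRNAs. Of the 3 members, 2 passed the low-count filter and both were called higher. By log2 fold change miR-101a-3p ranked 35 and miR-101b-3p ranked 37 from the top of the 354, and by p they ranked 6 and 9 from the smallest. The median log2 fold change of all tested miRNAs was 0.07, and miR-101a-3p lay 0.69 above it. By read count miR-101a-3p ranked 37, 36 and 36 in TAC animals 29, 78 and 81, against 45, 47 and 47 in sham animals 47, 68 and 69. Ranks follow reads, and reads of different miRNAs need not reflect molecules equally.

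**Figure D2:**
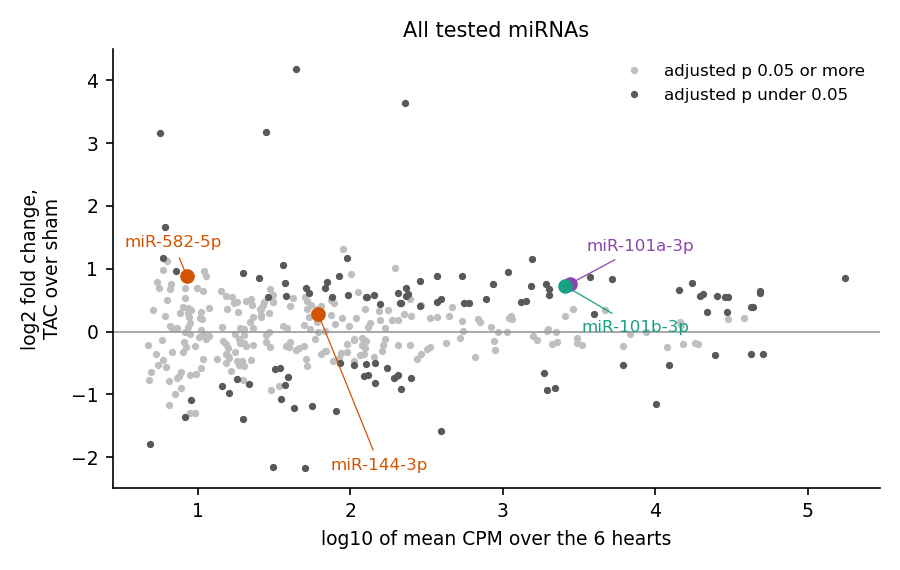
Log2 fold change of TAC over sham against the log10 mean CPM of the 6 hearts for the 354 tested miRNAs, with called miRNAs in dark grey. The 2 miR-101 3p points nearly coincide, at 0.76 and 0.73, while miR-144-3p and miR-582-5p, which share bases 2 to 7 with a member, lie at 0.28 and 0.89 and were not called.

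The 3p rows were not taken as 2 separate measurements. miR-101a-3p had 6112, 4743 and 3730 counts in TAC animals 29, 78 and 81, and miR-101b-3p had 5640, 4371 and 3442 there. In sham animals 47, 68 and 69 the counts were 8342, 4202 and 4830 for miR-101a-3p and 7846, 3986 and 4535 for miR-101b-3p. The ratio of the rows was 1.08, 1.09 and 1.08 in TAC hearts and 1.06, 1.05 and 1.07 in sham hearts. On the log2 scale the ratio had an SD of 0.0011 between TAC hearts and 0.0079 between sham hearts, whereas separate counting of the rows would give each heart a counting error of 0.023 to 0.034. In both groups the ratio thus varied less than this counting error, although so few hearts give only a rough SD. The rows are therefore treated as sharing reads, and the rise as 1 result seen in both. The sharing itself was not tested, and the counts do not give how many reads reach base 16, where the loci differ. The table does not tell which locus made the reads. With both rows summed into 1, the log2 fold change was 0.71 ± 0.09 (SE, edgeR adjusted p = 0.00104).

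Within this near-fixed ratio, miR-101a-3p took slightly more in TAC. The mean log2 ratio of miR-101a-3p to miR-101b-3p was 0.117 ± 0.001 in TAC and 0.085 ± 0.008 in sham (SD, n = 3 each). The difference of 0.031 had a two-sided exact permutation p of 0.1, the smallest that 3 against 3 hearts allows, so it cannot pass a threshold of 0.05 in this design. The surplus of miR-101a-3p over miR-101b-3p, a measure chosen after the values were seen, is the least number of reads that the miR-101a row alone must hold. It was 472, 372 and 288 counts in TAC animals 29, 78 and 81, against 496, 216 and 295 in sham animals 47, 68 and 69. Scaled, it was 269 ± 17.9 CPM in TAC and 117 ± 9.28 CPM in sham (SD, n = 3 each), with all TAC hearts above all sham hearts and a ratio of means of 2.30, against 1.69-fold for the whole row (exact permutation p = 0.1). As a share of the miR-101a-3p row it was 7.72% to 7.84% in TAC hearts and 5.14% to 6.11% in sham hearts. The scaled surplus is the level of the row multiplied by this share, so its 2.30 is no separate result.

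**Figure D3:**
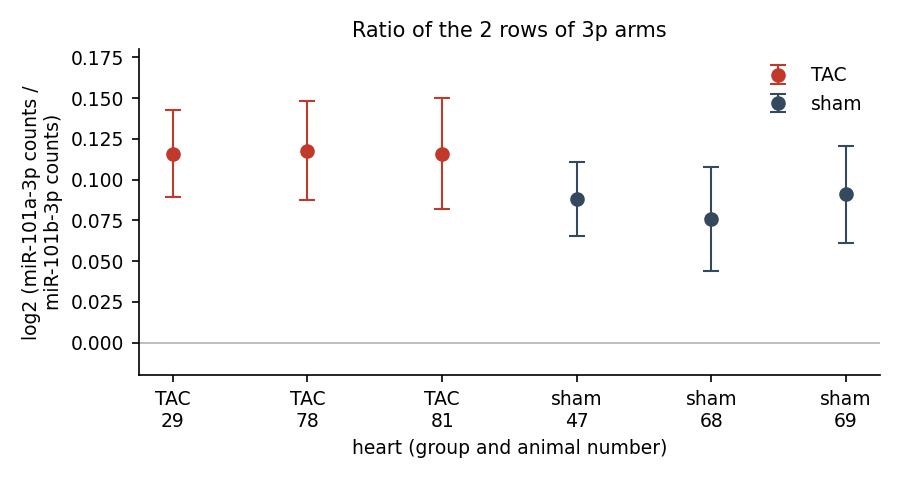
Log2 ratio of miR-101a-3p counts to miR-101b-3p counts in each heart, with bars giving the counting error (1 SD) that the ratio would have if the rows were counted from separate reads. The hearts of a group differ by much less than these bars, and the TAC hearts (0.116 to 0.118) lie above the sham hearts (0.076 to 0.091).

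The other arm, miR-101a-5p, was almost absent from the counts. It had 0, 0 and 3 counts in TAC animals 29, 78 and 81, against 2, 5 and 1 counts in sham animals 47, 68 and 69, which sums to 3 in TAC and 8 in sham. The groups overlapped, the row did not pass the low-count filter, and no fold change is given because both groups lie near the 3 counts that a count of 0 allows. Summed over hearts, the 3p row of the same hairpin held 14585 counts in TAC and 17374 in sham. The 5p arm was 0% of the hairpin's arm counts in TAC animals 29 and 78 (a count of 0 allows up to 0.0491% and 0.0633%), and 0.0804% in TAC animal 81 (exact 95% binomial interval 0.0166% to 0.235%). In sham animals 47, 68 and 69 it was 0.024% (0.0029% to 0.0866%), 0.119% (0.0386% to 0.277%) and 0.0207% (0.00052% to 0.115%). These intervals cover counting error only, and they overlap between groups. The log2 ratio of 3p to 5p counts, with 0.5 added to each, did not separate the groups at this depth (12.28 ± 1.94 in TAC, 10.98 ± 1.21 in sham, SD, n = 3 each, exact permutation p = 0.4).

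Outside the members, the 5p row of the second hairpin, miR-101b-5p, had 0 counts in every heart, and miR-101c had 0, 1 and 1 counts in TAC animals 29, 78 and 81 and 1, 0 and 0 in sham animals 47, 68 and 69. The guide of miR-101 was thus counted almost wholly in the rows of miR-101a-3p and miR-101b-3p, and hardly in that of miR-101c. The annotated miR-101c row holds 19 bases, all of which lie unchanged within miR-101a-3p, because U1C and A21U fall outside it. Why so few reads were counted in the miR-101c row was not tested. The 3 members together held 0.654%, 0.556% and 0.585% of each library's counts in TAC animals 29, 78 and 81, against 0.461%, 0.450% and 0.414% in sham animals 47, 68 and 69, a sum in which any reads shared by the 3p rows count more than once. That share averaged 0.598% ± 0.0507 in TAC and 0.442% ± 0.0249 in sham (SD, n = 3 each, exact permutation p = 0.1).

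The rise of the 3p rows was smaller on other scales, though it passed the test on each of them. With library totals in place of TMM factors, the log2 fold change was 0.45 for miR-101a-3p and 0.42 for miR-101b-3p (edgeR adjusted p = 0.00642 and 0.0088), on a scale where the median of all tested miRNAs was -0.23. Base composition moved with the fold changes of the table: the median log2 fold change was 0.44 over 54 tested miRNAs with under 40% GC, 0.08 over 122 with 40% to 50%, and -0.21 over 139 above 50%. miR-101a-3p has 33.3% GC, miR-101b-3p as annotated 42.1%, and 18 of the 54 miRNAs under 40% GC were called higher. With that trend taken from each library, the log2 fold change was 0.40 for miR-101a-3p and 0.54 for miR-101b-3p (edgeR adjusted p = 0.0203 and 0.00574). There the 3p rows are corrected by different amounts, although they are treated here as sharing reads.

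**Figure D4:**
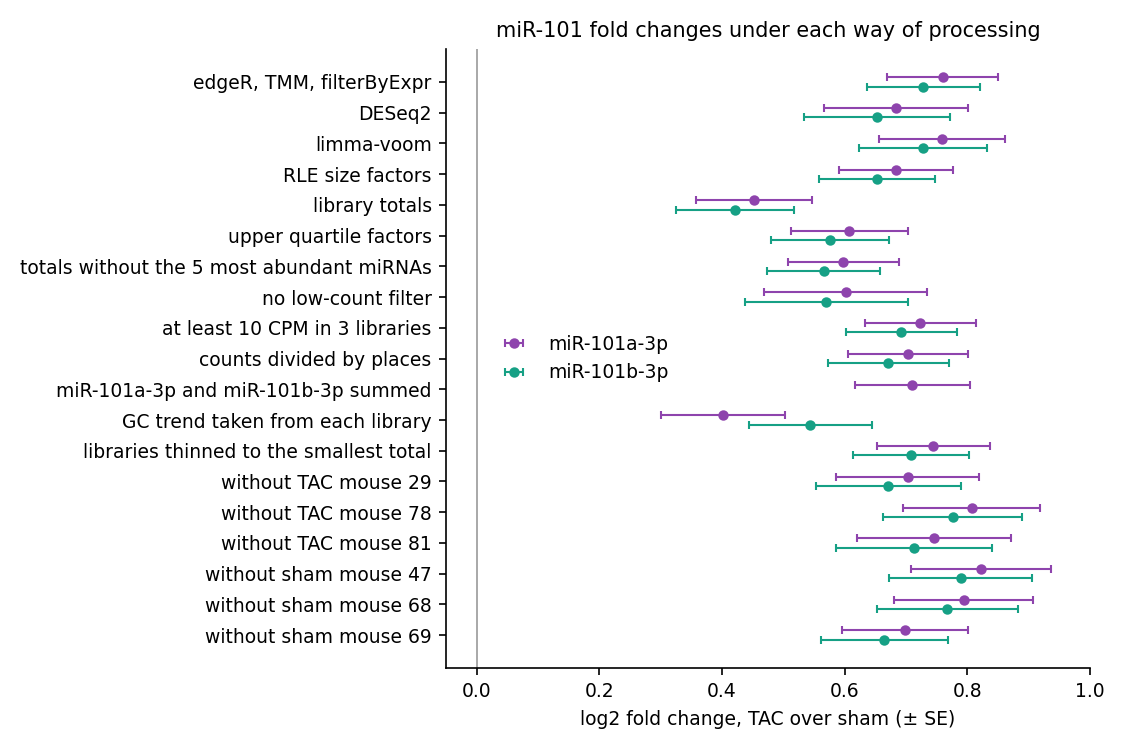
Log2 fold change of TAC over sham (± SE) for miR-101a-3p and miR-101b-3p under the reported test, in the top row, and under each alternative; the summed row is drawn once, as miR-101a-3p. All values lie above 0, from 0.40 (GC trend, miR-101a-3p) to 0.82 (without sham animal 47, miR-101a-3p).

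The seed relatives did not pass the test. miR-144-3p had 65.3, 52.4 and 84.6 CPM in TAC animals 29, 78 and 81, against 41.9, 56.2 and 67.8 CPM in sham animals 47, 68 and 69, and the groups overlapped (log2 fold change 0.28 ± 0.24, SE, edgeR adjusted p = 0.366). miR-582-5p had 6.66, 9.41 and 16.9 CPM in TAC animals 29, 78 and 81, against 5.37, 9.04 and 3.13 CPM in sham animals 47, 68 and 69, and its groups overlapped too, with a log2 fold change of 0.89 ± 0.47 (SE, edgeR adjusted p = 0.182). Whether either differs in its response from miR-101a-3p was not tested.

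The 5 miRNAs of at least 100 CPM with profiles nearest to miR-101a-3p were miR-30a-3p, miR-143-3p, miR-26b-5p, miR-192-5p and miR-145a-3p. Nearness was the root mean square distance of log2 CPM, centred on each miRNA's mean, over the 6 hearts. It was 0.091 for miR-30a-3p, of an abundant cardiomyocyte family, and 0.112, 0.116, 0.124 and 0.132 for the others in that order, against a median of 0.35 over the 151 candidates and 0.016 for miR-101b-3p. miR-30a-3p had 2366, 2436 and 2441 CPM in TAC animals 29, 78 and 81, against 1431, 1423 and 1423 CPM in sham animals 47, 68 and 69. miR-26b-5p averaged 2398 ± 93.8 CPM in TAC and 1603 ± 70.1 CPM in sham (SD, n = 3 each). All 5 were called higher, with log2 fold changes of 0.58 to 0.89, which follows from choosing them for their nearness over the same hearts and is no separate result.

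Among other miRNAs known to repress Ezh2, 4 of 6 were tested, 1 rose, 1 fell and 2 did not pass, with a median log2 fold change of -0.29. Of all 354 tested miRNAs, 19.2% were higher and 11.3% lower, and neither this list nor those below were tested against these shares. The log2 fold change of miR-26b-5p was 0.58 ± 0.08 (SE, edgeR adjusted p = 0.00145), a call lost with the GC trend (0.23). miR-214-3p, a mesenchymal miRNA, fell by 1.58 ± 0.18 in log2 units (SE, edgeR adjusted p = 0.000901). The abundant miR-26a-5p was at 0.21 ± 0.09 and miR-138-5p at -0.79 ± 0.59, and miR-124-3p and miR-217-5p had too few counts to test.

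Of 7 miRNAs known to limit fibrosis, 6 were tested, 4 rose, 0 fell and 2 did not pass, with a median of 0.62. Over all tested miRNAs, 19.2% were higher. miR-133a-3p, of muscle, rose by 0.62 ± 0.13 and miR-30c-5p, which represses connective tissue growth factor, by 0.67 ± 0.12 (SE, edgeR adjusted p = 0.00841 and 0.00486). miR-26a-5p and the collagen repressor miR-29a-3p (0.35 ± 0.14) did not pass. The number called higher depended on the processing: 0 of the 6 were higher with library totals, 1 of the 5 to which the GC trend could be applied (miR-30c-5p), and 2 of the 6 without TAC animal 29, TAC animal 78, sham animal 68 or sham animal 69. There were also 2 with upper quartile factors, with totals without the 5 most abundant miRNAs, without a filter and with counts divided by places. miR-24-3p was at 0 in every heart, but both of its places lie over rows of the opposite strand, and such zeros do not measure absence.

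Of 4 miRNAs known to favour fibrosis, all 4 were tested, 3 fell and 1 did not pass, with a median of -1.02. Over all tested miRNAs, 11.3% were lower. miR-21a-5p, of stressed fibroblasts, fell by 1.15 ± 0.15 and miR-199a-5p by 0.89 ± 0.16 in log2 units (SE, edgeR adjusted p = 0.000901 and 0.00419), while miR-34a-5p was at -0.16 ± 0.21. The third that fell was miR-214-3p. These 3 stayed lower under every alternative run.

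Markers of heart cell types moved in the same comparison, in which 19.2% of all 354 tested miRNAs were higher and 11.3% lower. All 4 cardiomyocyte markers (miR-1a-3p, miR-133a-3p, miR-208a-3p and miR-499-5p) were higher, and their summed level was 273499.9 to 325883 CPM in TAC hearts and 151805 to 183052 CPM in sham hearts. With library totals 2 of these 4 were called. The GC trend could be applied to 2 of them, of which miR-499-5p kept its call and miR-208a-3p lost it. Of 4 smooth muscle markers 3 were higher, at summed levels of 59555 to 62589 CPM in TAC and 34646 to 43269.8 CPM in sham, and the GC trend could be applied to 0 of them. With library totals, upper quartile factors, totals without the 5 most abundant miRNAs or no filter, miR-143-5p lost its call and 2 were higher. The same held without TAC animal 78, TAC animal 81, sham animal 68 or sham animal 69. All 5 mesenchymal markers of the miR-199 and miR-214 group were lower, at 16568 to 17155 CPM in TAC and 19015 to 30748 CPM in sham. Among them miR-199a-3p and miR-199b-3p, both at a log2 fold change of -0.53, repeat the same reads, so the 5 rows are at most 4 measurements and the sum counts those reads more than once. The count was 3 when any 1 of TAC animals 29, 78 and 81 or sham animals 47 and 68 was left out. Of 6 leukocyte markers 5 were tested and 1, miR-150-5p, was higher, against 2 higher without sham animal 47. The summed level of the leukocyte markers was 1501 to 1627 CPM in TAC and 1114 to 1503 CPM in sham. miR-150-5p alone averaged 131 ± 7.18 CPM in TAC and 57.9 ± 5.23 CPM in sham (SD, n = 3 each). The GC trend could not be applied to miR-150-5p. Of 4 red blood cell markers 3 were tested and 1, miR-451a, was higher. The summed level of the red blood cell markers was 1642 to 3063 CPM in TAC and 999.9 to 1165 CPM in sham. miR-451a alone averaged 2154 ± 695 CPM in TAC and 971 ± 82.5 CPM in sham (SD, n = 3 each). Both endothelial markers, miR-126a-3p and miR-126a-5p, were at 0 in every heart, as were miR-142a-3p and miR-486a-5p, and each lies over a row of the opposite strand. The part of these cell types in the rise of miR-101 was not tested.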

How the data were processed

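The authors deposited whole-number read counts per mature miRNA, 1 column per mouse. The submitters' processing notes name HISAT2, StringTie, DESeq2 and the mm10 build without saying what each did. Per the labels' protocols, a Vazyme kit was used for RNA extraction. The sources used here give no counter, adapter trimming, multi-mapping rule or strand setting. All 6 value columns were matched to a mouse by animal number and 0 were left over. Totals were 1795831, 1640109 and 1226187 counts in TAC animals 29, 78 and 81 and 3509001, 1818725 and 2263006 in sham animals 47, 68 and 69, so 3 counts are 0.855 to 2.45 CPM by library total. No 2 libraries of a group were copies (a chi-square test of their counts gave 31.6 to 67.8 per degree of freedom).

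The counts were tested with edgeR 4.0.16 in R 4.3.3 (quasi-likelihood F-test after filterByExpr, with TMM factors and without covariates, Benjamini-Hochberg adjustment over 354 miRNAs, called at adjusted p under 0.05). The same steps were also run on simulated counts, which held no GC trend, so that run does not speak to the trend seen here. CPM are TMM-scaled. Ratios and shares were compared with two-sided exact permutation tests (scipy 1.17.1). Alternatives were DESeq2 1.42.0, limma-voom (limma 3.58.1), 4 other scalings, 2 other low-count filters, division of counts by places, summing of the 3p rows, a GC trend (loess, span 0.75, over miRNAs with a sequence, 315 of the 354), thinning to the smallest total, and leaving out each mouse. Sequences were matched by name to RefSeq for 1675 of 1966 rows. The named miRNAs are the members, up to 4 of the most abundant tested members of each list, miRNAs sharing bases 2 to 7 with a member, and the 5 nearest profiles of at least 100 CPM (log2 of CPM plus 0.5). The members and lists were chosen with earlier results of these data known.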

Additional observations from a re-analysis of the deposited data

How the results depend on the processing

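miR-101a-3p and miR-101b-3p stayed higher in TAC and passed the test under all 18 and all 17 alternatives that tested them (the summed row of both is counted once, for miR-101a-3p), at log2 fold changes of 0.40 to 0.82 and 0.42 to 0.79 (largest adjusted p = 0.0203 and 0.0088). Leaving out 1 mouse gave 0.70 to 0.82 and 0.66 to 0.79. miR-101a-5p could be fitted only with no low-count filter, at -0.55 ± 1.15 (adjusted p = 0.788), from 11 counts in all; that value depends on the prior count and is no bound. The 108 called miRNAs became 65 with the GC trend, which tests 312 miRNAs, and 64 to 83 without 1 mouse (69 without TAC animal 78, 64 without TAC animal 81; the cause was not tested). The balance of 68 higher to 40 lower shifted with the scaling: RLE gave 50 to 56, upper quartile scaling 41 to 63, leaving the 5 most abundant miRNAs out of the totals 43 to 72, library totals 25 to 102 (with the median of all tested miRNAs at -0.23), DESeq2 58 to 53, no filter 42 to 65, and division by places 51 to 52. The difference in log2 ratio of miR-101a-3p to miR-101b-3p stayed at 0.027 to 0.034 without 1 mouse, the 3p to 5p difference ran from 0.60 to 2.42 and was 0.28 with libraries thinned to the smallest total (1.30 as reported), and that of the members' share from 0.129 to 0.178 percentage points. No paired analysis was possible because the groups share no animal number. Sharing of reads between the 3p rows, which was not tested directly, and the few reads of the 5p arm limit what these counts can tell of each locus.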
